A study of Mus musculus with 24 samples.

Results

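The 9 genes described here encode the core of non-homologous end joining and the pair of proteins that steer a broken DNA end into it, *Xrcc5*, *Xrcc6*, *Prkdc*, *Dclre1c*, *Lig4*, *Xrcc4*, *Nhej1*, *Trp53bp1* and *Rif1*. They were chosen by name, as the entries of the count tables whose Ensembl identifiers carry these mouse symbols, and they are 9 of the 49315 genes listed for each library. The 24 libraries come from primary astrocytes of the brain cortex of wild type C57BL/6J mice, grown from late embryos and exposed in culture to X-rays. The doses were 0 Gy (mock-irradiated cells), 0.1 Gy and 2 Gy, RNA was taken 6 h or 24 h after exposure, and each of these 6 groups has 4 libraries with the replicate numbers 1 to 4. All groups share the strain, the genotype, the poly(A) selection and the sequencing run, and no group carries a transgene or a drug. The embryos of a pregnant mouse were pooled for a preparation, so a library is a culture and not an animal, and the cells were studied outside the brain.

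Non-homologous end joining repairs a DNA double strand break by joining its ends directly, in any phase of the cell cycle. The Ku heterodimer threads onto the ends and recruits the kinase DNA-PKcs, the nuclease Artemis trims ends that cannot be joined, and a ligase complex seals them. 53BP1 and its effector RIF1 hold back the resection that would commit a break to homologous recombination, which needs a sister chromatid, so most repair in cells that rarely divide depends on end joining. In bulk RNA, fewer cells that express a gene and less of its RNA per cell cannot be told apart.

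The genes lie on 6 chromosomes (coordinates of GRCm38 as the files give them). *Xrcc5* (ENSMUSG00000026187, chr1:72307421-72394952, plus strand) and *Xrcc6* (ENSMUSG00000022471, chr15:81987835-82040085, plus strand) encode Ku80 and Ku70. *Prkdc* (ENSMUSG00000022672, chr16:15637866-15842235, plus strand) encodes DNA-PKcs and *Dclre1c* (ENSMUSG00000026648, chr2:3424131-3464130, plus strand) Artemis. The ligase complex is encoded by *Lig4* (ENSMUSG00000049717, chr8:9969049-9977686, minus strand), *Xrcc4* (ENSMUSG00000021615, chr13:89774027-90089608, minus strand) and *Nhej1* (ENSMUSG00000026162, chr1:74967139-75125200, minus strand), the last of which makes the XLF protein. *Trp53bp1* (ENSMUSG00000043909, chr2:121193281-121271407, minus strand) encodes 53BP1 and *Rif1* (ENSMUSG00000036202, chr2:52072837-52122383, plus strand) RIF1.

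Promoter sequences from RefSeq (GRCm38.p6) were found for 7 of the 9 genes, and there was no entry for *Prkdc* and *Rif1*. The 250 bases before the RefSeq start are shown for the 2 Ku genes, which make the partners of one dimer, and for *Dclre1c*, whose window held the most matches of the 7 genes. They are also shown for *Trp53bp1*, the 1 member called between the times in the unpaired test given below. For *Xrcc6* this start lies 28.5 kb inside the gene as the files' coordinates give it, while for the other 3 it is the first base of the gene. Capitals mark matches on either strand to the CCAAT box (CCAAT or ATTGG) or to the core of the cAMP response element (TGACG or CGTCA).
*Xrcc5*, chr1:72307171-72307420, plus strand: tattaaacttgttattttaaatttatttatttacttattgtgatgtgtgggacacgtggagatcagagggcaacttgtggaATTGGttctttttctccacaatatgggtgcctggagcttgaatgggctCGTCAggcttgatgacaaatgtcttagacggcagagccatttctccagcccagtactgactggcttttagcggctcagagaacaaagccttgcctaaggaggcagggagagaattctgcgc
*Xrcc6*, chr15:82016119-82016368, plus strand: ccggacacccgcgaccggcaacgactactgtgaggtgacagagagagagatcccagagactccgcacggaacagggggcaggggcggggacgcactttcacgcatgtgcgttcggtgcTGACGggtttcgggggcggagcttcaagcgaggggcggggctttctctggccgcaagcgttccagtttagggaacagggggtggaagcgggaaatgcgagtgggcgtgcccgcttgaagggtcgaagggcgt
*Dclre1c*, chr2:3423881-3424130, plus strand: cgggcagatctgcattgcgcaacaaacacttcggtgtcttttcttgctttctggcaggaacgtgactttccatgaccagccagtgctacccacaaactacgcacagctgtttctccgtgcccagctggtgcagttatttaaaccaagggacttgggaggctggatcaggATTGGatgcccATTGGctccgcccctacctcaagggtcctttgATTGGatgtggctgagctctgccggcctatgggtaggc
*Trp53bp1*, chr2:121271408-121271657, minus strand: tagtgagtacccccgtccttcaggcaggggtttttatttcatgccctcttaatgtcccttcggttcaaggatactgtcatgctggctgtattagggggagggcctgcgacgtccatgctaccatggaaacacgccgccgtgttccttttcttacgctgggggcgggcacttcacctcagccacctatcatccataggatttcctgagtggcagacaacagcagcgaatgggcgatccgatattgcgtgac

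The *Xrcc5* window has a GC content of 44.8% and holds 1 CCAAT box and 1 such core, while that of its partner *Xrcc6* has a GC content of 65.2% and holds 1 core and no CCAAT box. The *Dclre1c* window holds 3 CCAAT boxes on the minus strand, close to its end, and the *Trp53bp1* window holds neither motif. Of all 32851 promoter windows of this length, 33.8% hold a CCAAT box and 17.8% a core on either strand, so single matches are common. The forms of the E2F site that were searched, TTTCGCGC and TTTGGCGC with their reverse complements, are in 0.256% and 0.417% of all windows and in none of the 7 genes' windows. A match describes the letters of the window and not binding.

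All 9 genes were expressed above the filter on low counts in every comparison. To compare genes, CPM (counts scaled to the library size after TMM normalization) were divided by the summed exon length in kb. On this scale *Xrcc5* was the highest, with 15.5 ± 2.53 CPM per kb (SD over the 24 libraries), above 79.7% of the 17299 genes that passed the filter over all libraries. Its partner *Xrcc6* followed with 6.50 ± 1.19, and the level of *Xrcc5* exceeded that of *Xrcc6* in 24 of 24 libraries. The size of this gap depends on the summed exon lengths, 2.555 kb for *Xrcc5* and 4.476 kb for *Xrcc6*. Before division by length their ranges overlapped at 24 h after 2 Gy. There *Xrcc5* had a mean of 38.0 CPM (32.1 to 42.8) and *Xrcc6* of 31.6 CPM (25.3 to 40.5). *Lig4* (4.08 ± 1.11), *Trp53bp1* (3.95 ± 0.855) and *Xrcc4* (3.51 ± 0.568) formed the middle, and the order within it depended on the time. *Lig4* was above *Trp53bp1* in 12 of 12 libraries at 6 h and below it in 11 of 12 at 24 h. *Trp53bp1* was above *Xrcc4* in 6 of 12 libraries at 6 h and in 12 of 12 at 24 h. *Rif1* had 2.88 ± 0.875 and *Nhej1* 2.19 ± 0.497 CPM per kb, and *Xrcc4* was above *Rif1* in 7 of 12 libraries at 6 h and 9 of 12 at 24 h. *Dclre1c* (1.10 ± 0.321) and *Prkdc* (0.962 ± 0.334) were the lowest and overlapped widely, *Dclre1c* being above *Prkdc* in 10 of 12 libraries at 6 h and 6 of 12 at 24 h, and *Prkdc* lay above 25.7% of the genes. By raw counts per library the genes ranged from 34 to 119 for *Nhej1*, the least deeply counted, to 762 to 2410 for *Trp53bp1*.

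**Figure D1:**
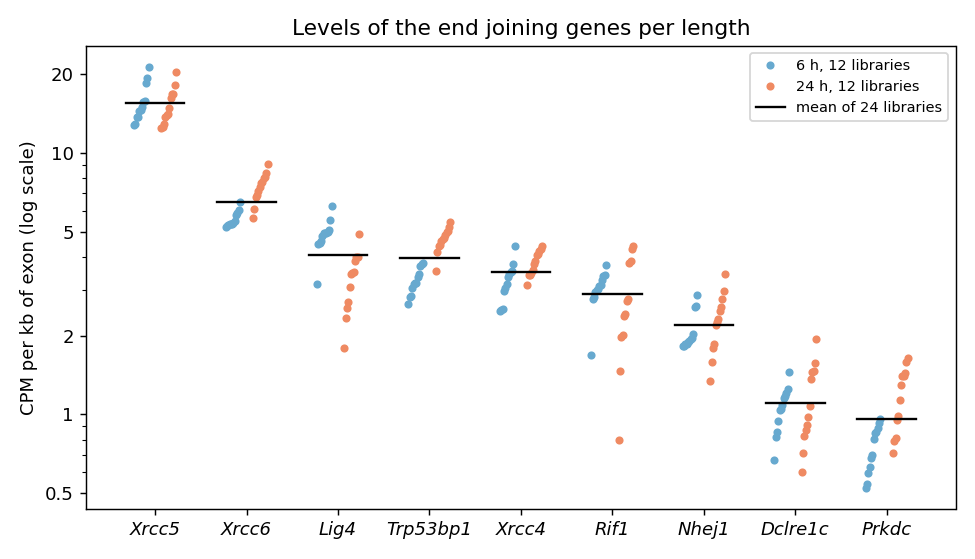
CPM per kb of exon (log scale) of the 9 genes, ordered by their mean over 24 libraries (black lines). Blue points are the 12 libraries taken at 6 h and orange points the 12 taken at 24 h. *Xrcc5* stands above all other genes, and *Lig4* lies above *Trp53bp1* in 12 of 12 libraries at 6 h and below it in 11 of 12 at 24 h.

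The total counts ranged from 14742855 to 38194800 over the libraries (median 24829888.5), and the cell type named in the labels was checked against markers. All 10 astrocyte markers had a mean of at least 1 CPM, and their summed level was 2356 to 3412 CPM. The 8 microglial markers were present too, at a summed level of 998 to 1423 CPM in the libraries with the numbers 1, 3 and 4 and of 154 to 181 CPM in the 6 libraries with the number 2. Markers of other cells were present as well. The neuronal list summed to 404 to 726 CPM, with 5 of 8 genes at a mean of at least 1 CPM. *Stmn2* (181 to 322 CPM), *Map2* (105 to 424) and *Tubb3* (35.1 to 123) carried most of it, while *Rbfox3* and *Slc17a7* stayed under 1 CPM in every library. The oligodendrocyte lineage list summed to 288 to 815 CPM (6 of 8 genes). The fibroblast and vessel list summed to 286 to 1407 CPM (5 of 8 genes), with *Col1a1* at 118 to 879 CPM, *Col1a2* at 99.3 to 485 and the endothelial marker *Cldn5* under 1 CPM in every library. The part of these cells in the results was not tested. Libraries with the same number deviated together from their groups within a time (correlation across genes of 0.516 to 0.913), so the numbers were taken to pair the libraries within a time, and values from a blocked fit, which compares libraries within a number, stand beside the unpaired ones wherever a call changes.

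The question at 6 h was whether either dose changed the RNA of the repair machinery in the first hours. No gene of the 9 passed the test at 6 h, and the largest difference was 0.22 on the log2 scale. After 0.1 Gy the log2 fold changes over mock-irradiated cells ran from -0.03 to 0.16 with SE of 0.11 to 0.24, and the lowest adjusted p was 1.00 (edgeR quasi-likelihood test, Benjamini-Hochberg adjustment over all genes). After 2 Gy they ran from -0.07 (*Xrcc6*) to 0.22 (*Dclre1c*), again with a lowest adjusted p of 1.00. The fit with the replicate block called none of the 9 either, with adjusted p of at least 0.885 after 0.1 Gy and of at least 0.682 after 2 Gy. Over all genes these 4 fits called 0% (0 of 16020 after 0.1 Gy and 0 of 15994 after 2 Gy), so the 9 genes had no fewer calls than the rest. At an unadjusted p under 0.05, 24 of 16020 and 215 of 15994 genes passed unpaired and 636 and 1101 with the block, and none of the 9 genes was among these. Unpaired DESeq2 called 0 and 1 genes at this time.

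At 6 h *Xrcc6* lay between 23.3 and 29.0 CPM in every library. It had 24.6, 24.1, 23.9 and 29.0 CPM in mock-irradiated replicates 1 to 4 at 6 h, against 23.9, 23.7, 26.0 and 27.1 after 0.1 Gy and 23.5, 23.3, 23.9 and 26.4 after 2 Gy. The ranges overlap, and 3 of the 4 mock-irradiated libraries lie within 1 CPM of each other. Within numbers, *Xrcc6* after 2 Gy was below mock-irradiated cells in 4 of 4 pairs and below 0.1 Gy in 4 of 4. The difference from mock-irradiated cells was small (log2 fold change -0.06, SE 0.08, adjusted p = 0.805 in the edgeR fit with the block). *Xrcc5* ranged from 32.9 to 49.2 CPM in mock-irradiated cells and from 35.1 to 54.5 CPM after 2 Gy, with replicate 2 the highest in both groups. *Lig4*, the ligase, had 23.4 ± 4.64 CPM in mock-irradiated cells, 25.9 ± 2.18 after 0.1 Gy and 26.5 ± 4.15 after 2 Gy (SD, n = 4). *Rif1* had 34.5, 31.0, 36.0 and 17.7 CPM in the mock-irradiated libraries at 6 h, 35.6, 32.7, 31.6 and 33.0 after 0.1 Gy and 29.0, 31.3, 29.6 and 39.2 after 2 Gy. Mock-irradiated replicate 4 is the lowest there, and it is low for *Lig4* (16.5 CPM) as well.

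**Figure D2:**
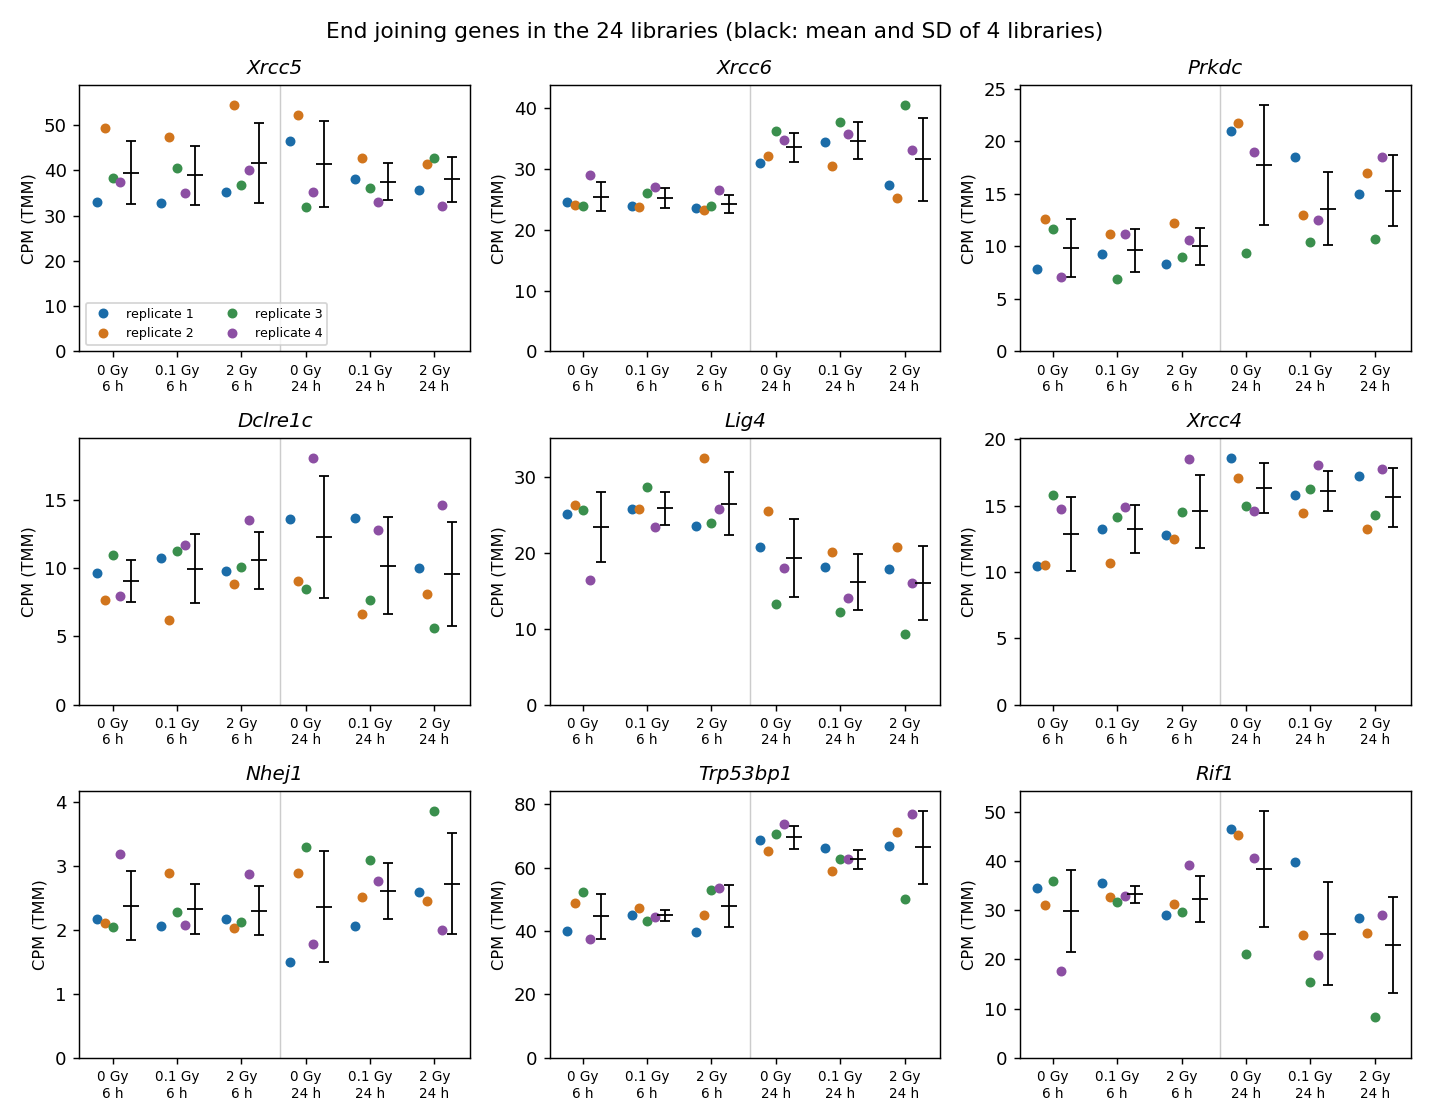
CPM after TMM normalization of each gene in the 24 libraries, by dose and time, with points coloured by replicate number and black bars for the mean and SD of 4 libraries. Doses overlap for every gene within each time, *Trp53bp1* and *Xrcc6* lie higher in the mock-irradiated libraries at 24 h than at 6 h, and *Rif1* has its lowest value, 8.39 CPM, in replicate 3 at 24 h after 2 Gy.

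At 24 h no member lay further below mock-irradiated cells than *Rif1* at either dose, and it was called with the replicate block but neither without it nor with the GC and length correction added to it. RIF1 acts downstream of 53BP1 against resection and also sets the timing of DNA replication. Its RNA was at 46.4, 45.3, 21.1 and 40.7 CPM in mock-irradiated replicates 1 to 4, at 39.8, 25.0, 15.4 and 20.9 CPM after 0.1 Gy, and at 28.5, 25.4, 8.39 and 29.1 CPM after 2 Gy. Each exposed library was below the mock-irradiated library of its own number, in 4 of 4 pairs at both doses, and the groups overlap because replicate 3 is low throughout.

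In the unpaired fit the log2 fold change of *Rif1* was -0.62 (SE 0.34, adjusted p = 0.943) after 0.1 Gy and -0.74 (SE 0.40, adjusted p = 0.940) after 2 Gy (edgeR quasi-likelihood test). With the replicate block it was -0.64 (SE 0.12, adjusted p = 0.0262) after 0.1 Gy and -0.82 (SE 0.13, adjusted p = 0.0115) after 2 Gy, that is 0.643 and 0.567 of the mock-irradiated level. The blocked fit called 6.84% of 16183 genes after 0.1 Gy, 4.5% as lower, and 13.2% of 15892 genes after 2 Gy, 6.69% as lower. *Rif1* was thus 1 of 9 members called at each dose, a share near those backgrounds. The unpaired fits called 0% of the genes at either dose, with 241 and 570 genes at an unadjusted p under 0.05 and none of the 9 among them. Unpaired DESeq2 called 0 genes after 0.1 Gy and 100 (0.654%) after 2 Gy, and all 24 libraries in one edgeR fit 0 and 108 (0.622%), again none of the 9. With the block 4540 and 5126 genes were at an unadjusted p under 0.05, among them 4 of the 9 after 0.1 Gy and 3 of the 9 after 2 Gy. The comparisons of 0.1 Gy and of 2 Gy use the same mock-irradiated libraries, so the values of the 2 doses are not independent of each other.

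The *Rif1* value at 24 h is set here beside its GC content, other fits and the proliferation genes. *Rif1* transcripts have a GC content of 39.3% in the longest annotated transcript, the lowest of the 9 genes. The median of the genes that passed the filter was 49.6% (17251 genes with a GC content), and 7 of the 9 genes lie below that median. When the block was combined with a correction of each library for GC content and length, the log2 fold change was -0.27 (adjusted p = 0.106) after 0.1 Gy and -0.42 (adjusted p = 0.0504) after 2 Gy, and this fit called 1.89% and 3.51% of all genes and none of the 9. The calls with the block were also lost when the number 2 (-0.57, adjusted p = 0.0827) or 4 (-0.51, 0.188) was left out after 0.1 Gy, and when the number 1 (-0.87, 0.0503) or 2 (-0.82, 0.109) was left out after 2 Gy. Such fits of fewer libraries called between 0.0987% and 23.2% of all genes after 0.1 Gy. After 2 Gy they called between 0.432% and 33.1%, so a lost call is not particular to *Rif1*. The number 2 is the one with few microglial transcripts. The 12 proliferation genes had a summed level of 574 to 703 CPM in mock-irradiated cells, 476 to 531 CPM after 0.1 Gy and 280 to 334 CPM after 2 Gy at 24 h, with no overlap between groups, and all 12 had a mean of at least 1 CPM. The parts of dividing cells and of microglia in the *Rif1* value were not tested. When the low mock-irradiated replicate 3 was left out, *Rif1* and *Prkdc* had groups that did not overlap at both doses (2 of 9 genes, against 15% of all genes after 0.1 Gy and 17.5% after 2 Gy), whereas with all 4 libraries no member had.

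**Figure D3:**
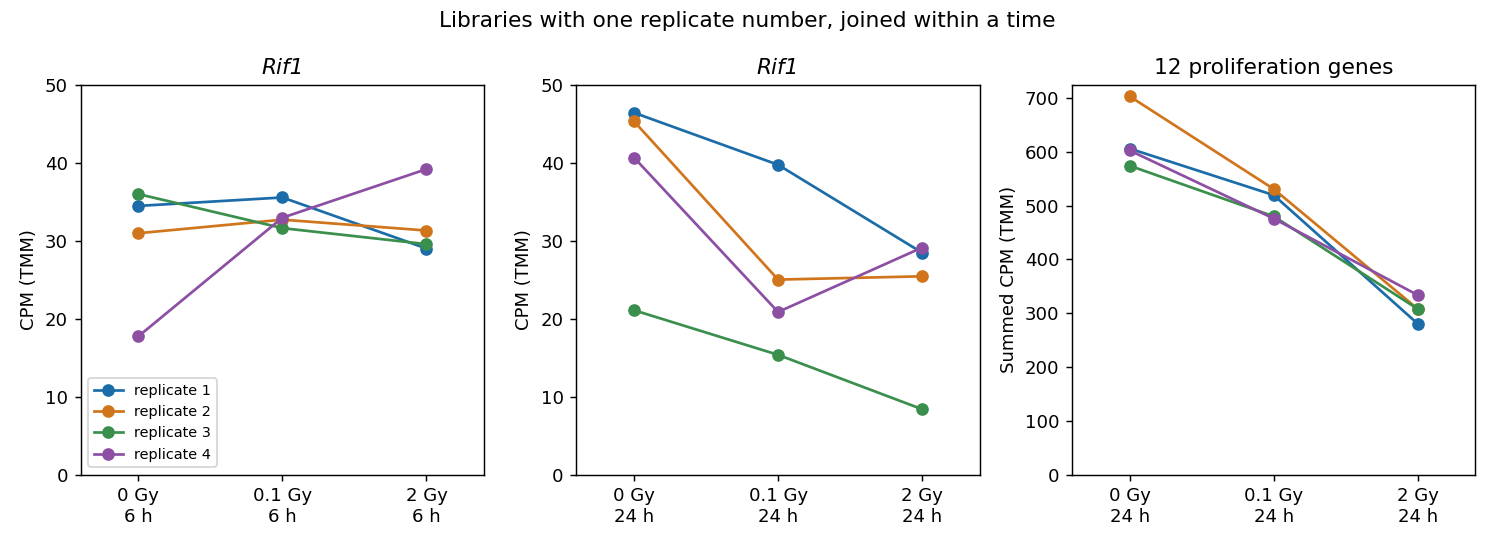
*Rif1* at 6 h (left) and 24 h (middle) in CPM, and the summed CPM of 12 proliferation genes at 24 h (right), with lines joining libraries of one replicate number across the doses. At 24 h each *Rif1* line lies lower at 0.1 Gy and at 2 Gy than at 0 Gy, which is not the case at 6 h, and the summed proliferation genes separate the 3 doses.

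Whether the response of *Rif1* to 2 Gy differed between the times was tested as an interaction. Its log2 value was -0.85 (SE 0.48, adjusted p = 0.819) unpaired and -0.95 (SE 0.28, adjusted p = 0.0533) with the replicate block, which missed the threshold. The block in DESeq2 gave -0.98 (adjusted p = 0.00687) and called 18.5% of its 13336 genes, and the block in edgeR with the GC and length correction gave -0.41 (adjusted p = 0.173). No member was called in either edgeR fit without the correction, against 0% of 16866 genes unpaired (827 at an unadjusted p under 0.05, none of the 9 among them) and 6.78% with the block (5195 at an unadjusted p under 0.05, 3 of the 9 among them). Unpaired DESeq2 called 7 genes here, none of them members. The other 8 genes ranged from -0.57 (*Dclre1c*) to 0.26 (*Nhej1*) in the unpaired fit.

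The remaining members did not pass at 24 h in either fit. *Lig4* was lower in 4 of 4 pairs at both doses, at 20.7, 25.5, 13.2 and 18.0 CPM in mock-irradiated replicates 1 to 4, 18.2, 20.1, 12.2 and 14.0 CPM after 0.1 Gy, and 17.8, 20.8, 9.33 and 15.96 CPM after 2 Gy. Its blocked log2 fold change was -0.27 (SE 0.10, adjusted p = 0.118) after 0.1 Gy and -0.29 (SE 0.10, adjusted p = 0.0878) after 2 Gy. *Dclre1c*, which opens hairpins and trims ends, had 13.6, 9.08, 8.45 and 18.1 CPM in mock-irradiated cells and 10.01, 8.08, 5.61 and 14.6 CPM after 2 Gy, a blocked log2 fold change of -0.37 (SE 0.12, adjusted p = 0.0647) that came to 0.01 with the GC and length correction. With that correction *Lig4* was at -0.06 (adjusted p = 0.791) after 0.1 Gy and -0.04 (adjusted p = 0.831) after 2 Gy. The groups of both genes overlap widely.

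*Prkdc*, the kinase, was at 20.9, 21.7, 9.33 and 19.0 CPM in mock-irradiated cells at 24 h, at 18.5, 12.9, 10.4 and 12.5 CPM after 0.1 Gy and at 14.98, 17.0, 10.7 and 18.5 CPM after 2 Gy. It was lower in 3 of 4 pairs at each dose, replicate 3 being the exception, with blocked log2 fold changes of -0.36 (adjusted p = 0.112) and -0.17 (adjusted p = 0.382), which came to -0.06 (adjusted p = 0.833) and 0.14 (adjusted p = 0.623) with the GC and length correction, so that the direction after 2 Gy turned. *Trp53bp1* was lower in 4 of 4 pairs after 0.1 Gy (log2 fold change -0.16, SE 0.11, adjusted p = 0.943 unpaired and 0.242 with the block) and in 2 of 4 after 2 Gy (-0.06, SE 0.16). With the block and the correction both of its values were above 0, at 0.03 (adjusted p = 0.874) and 0.11 (adjusted p = 0.445). The Ku genes were close to mock-irradiated cells, with unpaired log2 fold changes after 2 Gy of -0.12 (SE 0.20) for *Xrcc5* and -0.08 (SE 0.17) for *Xrcc6*. *Xrcc4* (-0.06, SE 0.18) and *Nhej1* (0.20, SE 0.34), the partners of the ligase, complete the set, *Nhej1* being the only gene of the 9 with a value above 0 after 2 Gy in the unpaired fit. With the block and the GC and length correction 5 of the 9 were above 0 after 2 Gy, and *Xrcc4* turned to 0.16 (adjusted p = 0.410). The medians over the 9 genes were -0.16 after 0.1 Gy and -0.12 after 2 Gy, beside -0.01 and 0.01 over all genes. With the block and the GC and length correction the medians over the 9 genes were -0.05 and 0.01.

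Replicate 3 weighed on these results. Without it, the blocked fit called 2 members after 0.1 Gy, *Prkdc* (-0.52, adjusted p = 0.0109) and *Rif1* (-0.68, adjusted p = 0.00463), where it called 23.2% of all genes. After 2 Gy it then called *Xrcc5* (-0.27, adjusted p = 0.0150), *Prkdc* (-0.28, 0.0476), *Dclre1c* (-0.30, 0.0461) and *Rif1* (-0.66, 4.01e-05), where it called 33.1% of all genes. In the interaction it called 3 members, *Xrcc5*, *Dclre1c* and *Rif1*, against 23.4% of all genes.

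**Figure D4:**
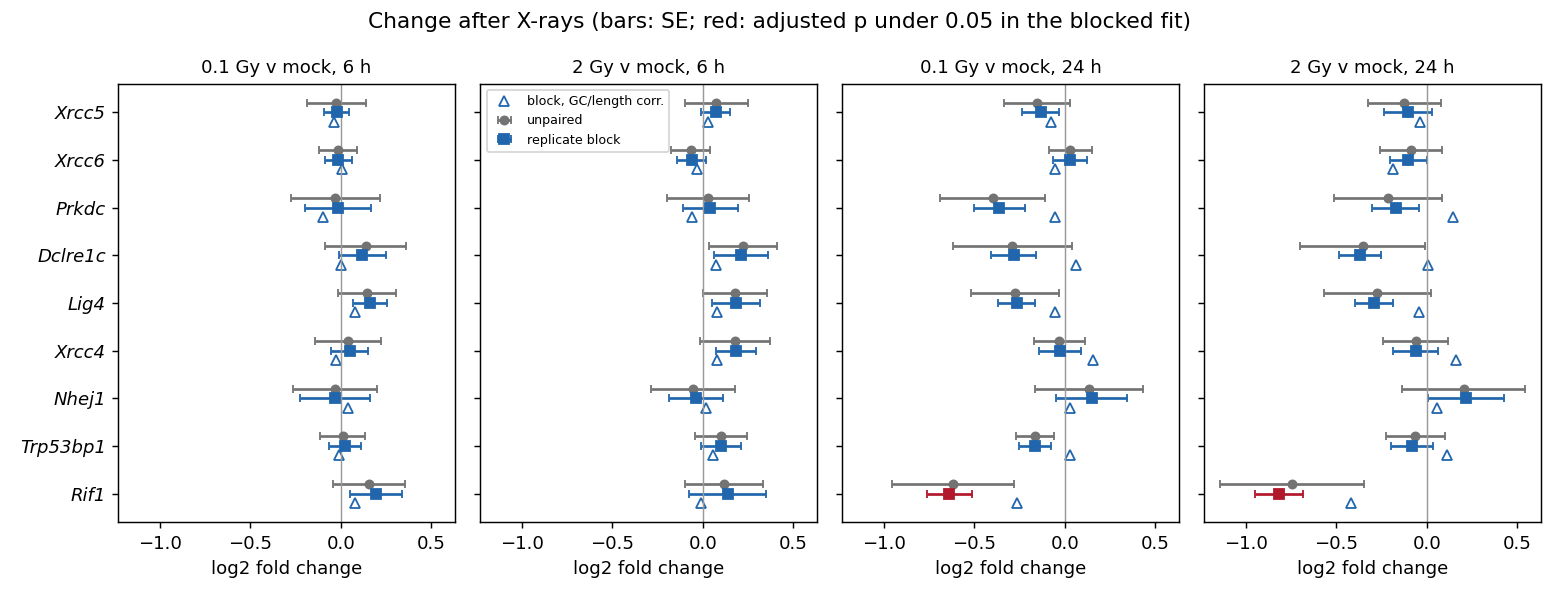
Log2 fold change of each gene for each dose and time over mock-irradiated cells, unpaired (grey circles with SE), with the replicate block (squares with SE, red where the adjusted p is under 0.05) and with the block and a correction for GC content and length (open triangles). *Rif1* at 24 h is the only gene in red, at -0.64 after 0.1 Gy and -0.82 after 2 Gy, and its triangles lie at -0.27 and -0.42.

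The 2 doses were also compared with each other. At 6 h the 9 log2 differences of 2 Gy over 0.1 Gy ran from -0.05 to 0.14, and at 24 h from -0.12 (*Rif1*, SE 0.42) to 0.19 (*Prkdc*, SE 0.25). None was called, and the unpaired fits called 0% of all genes at both times, with 121 and 215 genes at an unadjusted p under 0.05 and none of the 9 among them. Unpaired DESeq2 called 0 and 39 genes and the fit of all 24 libraries 0 and 15, none of them members. With the replicate block 0.0553% of the genes were called at 6 h and 0% at 24 h, none of them members, with 761 and 790 genes at an unadjusted p under 0.05.

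Between 6 h and 24 h in mock-irradiated culture *Trp53bp1* was higher at the later time. It had 40.0, 48.8, 52.3 and 37.3 CPM at 6 h and 68.5, 65.2, 70.7 and 73.9 CPM at 24 h, so that every library at 24 h was above every library at 6 h. The log2 fold change was 0.63 (SE 0.14, adjusted p = 0.0313, edgeR quasi-likelihood test), or 1.54-fold. This made 1 of 9 members called, against 6.7% of 15887 genes in either direction and 3.24% as higher. In the irradiated groups its range was 43.1 to 47.4 CPM at 6 h and 58.9 to 66.2 CPM at 24 h after 0.1 Gy, and 39.6 to 53.5 CPM and 50.2 to 77.0 CPM after 2 Gy. The call was lost when replicate 1, 3 or 4 at 6 h or replicate 1 or 4 at 24 h was left out (log2 fold changes of 0.55 to 0.70, adjusted p of 0.0574 to 0.119) and without the filter on low counts (0.64, adjusted p = 0.0542). *Trp53bp1* shares 2130 of its 14164 exon bases (15.04%) with *Tubgcp4* on the other strand, which had a log2 fold change of 0.52 (SE 0.20, adjusted p = 0.143), and whether the counting used strand is not given in the sources used here.

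The groups of *Xrcc6* did not overlap either, at 31.0, 32.1, 36.2 and 34.7 CPM at 24 h against 23.9 to 29.0 CPM at 6 h. Its log2 fold change of 0.38 (SE 0.13, adjusted p = 0.110) missed the threshold. *Xrcc6* shares 344 of its 4476 exon bases (7.69%) with *Desi1* on the other strand, which had a mean of 83.8 CPM and a log2 fold change of 0.18 (SE 0.13, adjusted p = 0.439). For these 2 genes the two-sided exact permutation test of the mean log2 CPM gave p = 0.0286, the smallest that 4 against 4 libraries allow, among 63 such tests and without adjustment. Groups did not overlap for 2 of the 9 genes here, against 15.3% of all genes. In the dose comparisons none of the 9 had groups apart, against 0.381% (0.1 Gy) and 1.16% (2 Gy) of all genes at 6 h, 1.11% and 2.96% at 24 h, and 0.756% and 1.24% between the doses at 6 h and 24 h.

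*Prkdc* had the largest difference between the times, at 7.83, 12.7, 11.7 and 7.10 CPM at 6 h against 20.9, 21.7, 9.33 and 19.0 CPM at 24 h. The log2 fold change was 0.84 (SE 0.30, adjusted p = 0.128), and it was 1.06 (adjusted p = 0.0195) when the low replicate 3 at 24 h was left out, a fit that called 2 of the 9 and 18.6% of all genes. *Dclre1c* (0.43, SE 0.27), *Rif1* (0.35, SE 0.29) and *Xrcc4* (0.33, SE 0.19) had values above 0, while *Xrcc5* (0.06, SE 0.20) and *Nhej1* (-0.02, SE 0.32) were near it. *Lig4* had the lowest value (-0.29, SE 0.23, adjusted p = 0.493), at 25.1, 26.3, 25.6 and 16.5 CPM at 6 h and 20.7, 25.5, 13.2 and 18.0 CPM at 24 h. The median of the 9 genes was 0.35, beside -0.02 over all genes. Time in culture, time of harvest and time after mock exposure cannot be told apart in this comparison.

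The related genes of 3 lists give the surroundings of the 9 genes. In all 3 lists the unpaired edgeR fit of the groups compared called none after either dose at either time. Unpaired DESeq2 and the fit of all 24 libraries each called 4 of these genes, all as lower, 24 h after 2 Gy (*Exo1*, *Blm*, *Brca1* and *Bard1*, at log2 fold changes of -1.44 to -1.01). The counts below are those of the fit with the replicate block, 24 h after 2 Gy, where 13.2% of all genes were called. With the GC and length correction added, the fit called 3.51% of all genes. Among the accessory factors of end joining, *Paxx*, a Ku-binding relative of XRCC4 and XLF, was higher (0.53, SE 0.11, adjusted p = 0.0237), and 2 of the 11 tested were lower. The lower ones were *Ercc6l2* (-0.49, SE 0.09, adjusted p = 0.0145) and *Tdp2* (-0.37, SE 0.10, adjusted p = 0.0433), which removes trapped topoisomerase from ends. The median of this list was 0.14. With the GC and length correction none of this list was called, with *Paxx* at 0.30 (adjusted p = 0.148), *Ercc6l2* at -0.25 (0.102) and *Tdp2* at -0.25 (0.122).

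Of 14 tested genes around 53BP1, 1 was higher and 3 were lower, with a median of -0.04. *Nudt16l1*, which encodes the 53BP1 inhibitor TIRR, was at 0.46 (SE 0.10, adjusted p = 0.0221). *Mdc1*, the adaptor that reads phosphorylated H2AX, was at -0.55 (SE 0.12, adjusted p = 0.0263), the kinase *Atm* at -0.61 (SE 0.14, adjusted p = 0.0266) and *Paxip1* at -0.34 (SE 0.10, adjusted p = 0.0467). With the GC and length correction added, the genes called were *Mdc1* (-0.51, adjusted p = 0.0246) and *H2afx* (-0.62, adjusted p = 0.00659), 2 of the 14 as lower and none as higher. Without the correction *H2afx* was at -0.20 (adjusted p = 0.179) with the block and at -0.19 unpaired. The calls of *Nudt16l1* (0.18, adjusted p = 0.274), *Atm* (-0.30, 0.153) and *Paxip1* (-0.24, 0.122) were lost. Between the times in mock-irradiated cells the unpaired fit called 6.7% of all genes and 1 of the 14 in this list. This was *H2afx*, the histone whose phosphorylation marks breaks, at -0.78 (SE 0.18, adjusted p = 0.0374), and it is named here after its value was seen. Without the filter on low counts *H2afx* was not called.

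Of 14 tested genes of resection and alternative end joining, the routes that compete with classical end joining, 10 were lower and none higher, with a median of -0.56, and 7 were lower with the GC and length correction. Those with the smallest adjusted p were the helicase *Blm* (-1.34, SE 0.14, adjusted p = 0.00248), *Brca1* (-1.16, SE 0.13, 0.00289) and its partner *Bard1* (-1.01, SE 0.12, 0.00336), and the nucleases *Exo1* (-1.40, SE 0.19, 0.00572) and *Dna2* (-0.88, SE 0.13, 0.00892). After 0.1 Gy the blocked fit called 6.84% of all genes, and 1.89% with the GC and length correction. It called 1 gene of these 3 lists, *Bard1* (-0.45, SE 0.12, adjusted p = 0.0395), and this call was lost with the correction (-0.32, adjusted p = 0.117). Of the 12 proliferation genes 12 were lower after 2 Gy, led by *Mki67* (-1.61, SE 0.10, adjusted p = 0.00109), and 5 after 0.1 Gy, with medians of -0.97 and -0.21. With the GC and length correction 12 were lower after 2 Gy and 2 after 0.1 Gy, *Mki67* (-0.50, adjusted p = 0.0203) and *Ccna2* (-0.39, adjusted p = 0.0214). At 6 h none of the 4 lists had a gene called in the unpaired or the blocked fit. With the block and the GC and length correction, which called 0.719% of all genes 6 h after 2 Gy and none of the 9, *Lig1* of the resection and alternative end joining list (-0.40, adjusted p = 0.0298) and *Mcm5* of the proliferation list (-0.41, adjusted p = 0.0286) were called as lower, and both are named here after their values were seen. The medians of the 9 members in the same blocked fits were -0.10 after 2 Gy and -0.16 after 0.1 Gy. Whether the lists differ from each other was not tested.

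Over the 24 libraries each member had a gene whose log2 CPM ran most closely with its own, given here as a description. The closest was *Il1rap* for *Lig4* (Pearson r = 0.984, Spearman rho = 0.978), then *Nup153* for *Rif1* (r = 0.974, rho = 0.911), *Phf21a* for *Trp53bp1* (r = 0.942, rho = 0.913) and *Itga4* for *Dclre1c* (r = 0.941, rho = 0.914). For *Xrcc6* it was *Dis3l* (r = 0.934), for *Prkdc* *Zfp329* (r = 0.931), for *Xrcc5* *Chn1* (r = 0.897), for *Nhej1* *1700037H04Rik* (r = 0.862) and for *Xrcc4* *BC052040* (r = 0.859). No member was the closest gene of another. The points share cultures, times and the composition of each library, and the search covered the 17299 genes that passed the filter.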

How the data were processed

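RNA of the 24 astrocyte libraries was poly(A)-selected and sequenced as paired reads by a company, which also trimmed, mapped and counted them. The tables deposited for each library hold raw counts of reads for every gene, not normalized and not pooled. The labels name the build mm10, and the coordinates are those of GRCm38. The aligner, the counting tool and the use of strand are not given in the sources used here. Symbols and GC content came from GENCODE M21 for 48970 of 49315 identifiers. Of the genes in the lists, *Shld3* was not matched.

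Groups and replicate numbers came from the sample titles. The labels call the libraries biological repeats, and nothing in them says which cultures were separate, so p-values measure the spread between these libraries. The counts of no pair of libraries within a group agreed within sampling noise in 36 pairs (lowest chi-square per degree of freedom 25.9). The deviations of same-numbered libraries correlated at 0.516 to 0.913 within a time and at 0.0894 to 0.802 across times, where the number 3 was under 0.1 and 3 of 4 libraries correlated best with their own number. The numbers were therefore taken as pairs within a time only, although the libraries with the number 2 resembled each other at both times.

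Counts were tested in R 4.3.3 with edgeR 4.0.16 (TMM, edgeR's filter on low counts, quasi-likelihood test, Benjamini-Hochberg over all genes) on the libraries of the groups compared. Calls were made at adjusted p values under 0.05, with no minimum fold. Log2 CPM used a prior count of 2. The GC and length correction fitted splines with 5 degrees of freedom to each library. The alternatives were DESeq2 1.42.0, limma 3.58.1 (voom), DESeq2's size factors, library size alone, no filter, at least 10 counts in every library, all 24 libraries in one fit, a minimum log2 fold change of 1 in size, the block in edgeR and DESeq2, and each library or number left out. The fits were also run on simulated counts with known changes, and the share of changes that each fit recovers is not reported here. Interval estimates are not given for counts, and errors are SD or SE over libraries.

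The 9 genes, the gene lists and the tests were chosen with earlier results of these data known. Named were all 9 members, list genes called in a dose comparison (at most 5 for each list and comparison) and the most similar gene of each member. The marker and pathway lists were written from general knowledge. Promoters came from RefSeq. The result on 1 gene of the lists is not reported here.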

Additional observations from a re-analysis of the deposited data

Results flagged for a closer look

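In 54 groups of 4 libraries (9 genes, 6 groups) the highest or lowest log2 CPM was looked at for a wide gap to its neighbour, relative to the range of the group. The gap was above Dixon's critical value for 4 samples in 7 groups. Chance gives about 1 in 20 for a single group. The groups of different genes share libraries and are not independent, so the 7 cannot be set against this rate. In mock-irradiated cells at 6 h replicate 4 stood apart for *Lig4* (0.899 of the range, 16.5 CPM, low), *Xrcc6* (0.860, 29.0 CPM, high) and *Nhej1* (0.855, 3.18 CPM, high). In mock-irradiated cells at 24 h replicate 3 stood apart for *Prkdc* (0.841, 9.33 CPM, low) and *Rif1* (0.832, 21.1 CPM, low), and after 2 Gy at 24 h replicate 3 was again low for *Rif1* (0.891, 8.39 CPM). After 0.1 Gy at 6 h replicate 2 was low for *Dclre1c* (0.866, 6.21 CPM). The causes were not tested.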

How the results depend on the processing

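Of 1602 values of single members under an alternative, 1577 kept their side of the threshold, 19 became called and 6 lost a call. None was called with the opposite sign, and 146 uncalled values changed sign. At 24 h the replicate block, in edgeR and in DESeq2, called 1 member (*Rif1*) after 0.1 Gy and 1 after 2 Gy where the unpaired fit called 0, and the block in DESeq2 also called 1 in the interaction (*Rif1*, adjusted p = 0.00687). In DESeq2 the block called 12.9%, 17% and 18.5% of all genes in these comparisons. With the replicate block and a number left out, 0 to 2 members were called after 0.1 Gy (0.0987% to 23.2% of all genes), 0 to 4 after 2 Gy (0.432% to 33.1%) and 0 to 3 in the interaction (0% to 23.4%), the highest counts without replicate 3. With a minimum fold the block called 0 (0.21% of all genes after 0.1 Gy, 0.812% after 2 Gy and 1.2% in the interaction). Between the times in mock-irradiated cells 1 member was called unpaired, 1 with the block (15.3% of all genes), 0 with a minimum fold, unpaired (3.55%) or in the paired fit (6.53%), 0 without the filter on low counts (2.84%) and 3 with all 24 libraries in one fit (*Trp53bp1*, *Xrcc6* at 0.0343 and *Prkdc* at 0.0324), a fit that called 14.3% of all genes. Leaving out a library gave 0 to 2 calls there (1.04% to 18.6% of all genes) and 0 in the other comparisons. Groups that did not overlap fell from 2 to 1 with library size alone (14.8% of all genes). With a library left out they numbered 2 to 4 between the times (16.2% to 33% of all genes), 0 to 2 at 24 h after 0.1 Gy (1.51% to 15%) and after 2 Gy (3.5% to 17.5%), with the highest counts without mock-irradiated replicate 3 (*Rif1* and *Prkdc*), 0 to 1 after 2 Gy at 6 h (1.71% to 4.63%) and between the doses (1.44% to 2.92% at 6 h and 1.81% to 5.58% at 24 h), and 0 after 0.1 Gy at 6 h (0.886% to 2.75%). The block changed no other call. The causes of these changes were not tested beyond the number of libraries and genes that each setting used. Counts of 34 to 119 limit what can be seen for *Nhej1*.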
